A study of Saccharomyces cerevisiae with 22 samples.

Results

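The comparison described here sets *rpb1-S2A*, a budding yeast strain whose RNA polymerase II (Pol II) lacks the serine that the kinase Ctk1p phosphorylates, beside *ctk1*Δ, a strain that lacks the kinase. Both were grown in YPD, a rich medium, and each is represented by 2 arrays (replicates a and b), so the comparison uses 4 of the 22 arrays of the series. The arrays were chosen by genotype and medium, and no measured value entered the choice. On each array the mutant RNA was hybridised together with a shared wild type RNA, the reference, and the dyes were swapped between replicates. The reference and the medium therefore cancel when the log2 ratio of *ctk1*Δ is subtracted from that of *rpb1-S2A*. The question is whether loss of the phosphorylated residue leaves the same mRNA levels as loss of the enzyme that phosphorylates it.

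The *rpb1-S2A* strain carries alanine in place of serine 2 of every repeat in the carboxy-terminal domain (CTD) of Rpb1p. The study's strain table gives it as a derivative of BY4741 (MATa, his3, leu2, met15, ura3) that came from another laboratory, with a kanMX6 marker at the mutated gene, and the sample titles also name mating type A. The *ctk1*Δ strain has a kanMX6 cassette in place of *CTK1* and derives from BY4742 (MATalpha, his3, leu2, lys2, ura3). The sample labels name BY4742 as the background of both. Mating type and auxotrophic markers thus differ together with the mutation, and these cannot be told apart from the CTD change in the 4 arrays alone. The RNA of *rpb1-S2A* replicate b was extracted by a high throughput protocol and the other 3 mutant RNAs by a standard one, per the labels. According to the methods, replicates were separately inoculated cultures harvested in early mid-log phase, and YPD was used because *rpb1-S2A* grew poorly in synthetic complete (SC) medium.

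The CTD of Rpb1p is a tail of heptapeptide repeats whose phosphorylation changes as Pol II moves along a gene. Serine 5 is phosphorylated near the start by Kin28p, and serine 2 further downstream, mainly by Ctk1p with a contribution of Bur1p (encoded by *SGV1*). The Nrd1-Nab3-Sen1 (NNS) complex terminates short transcripts such as small nucleolar RNAs (snoRNAs), and the cleavage and polyadenylation factor (CPF/CF) terminates mRNAs. When a snoRNA terminator is read through, the transcript can run into the next gene on the same strand, and a probe for that gene then reports a higher level.

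Several snoRNA and downstream gene pairs were probed by the study on Northern blots, and the oligonucleotides of 3 pairs are shown because their downstream genes separate the mutants on the arrays described below. In the *USE1* probe the capitals mark 21 bases that are the complement of a chromatin immunoprecipitation primer placed in the snR82 series, which places that primer at the *USE1* probe. In the snR13 probe the capitals mark 15 bases shared with a primer of the snR13 series. The snR82 pair lies on chromosome VII, the snR13 pair on chromosome IV and the snR5 pair on chromosome XV. The sequences, 5′ to 3′, are those of the study's oligonucleotide list, and the array probes for these genes are other oligonucleotides.
snR82 probe: agaaaaactcccggtaaccaggccag
USE1 probe: tGTAAACACCAGTCCGAGAATCataa
snR13 probe: CACACCGTTACTGATttggcaaaagc
TRS31 probe: catagggtaccgtggataaactgcag
snR5 probe: gtgatgtcttaagcatggtaatccgg
HEM4 probe: ggtgggcatgccttaatatccgtact

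Between 95% and 99.2% of the 6373 features (5311 named genes and 1062 probes with no gene symbol) were above background in the mutant channel of the 4 arrays, and no feature was saturated there. The log2 ratios of the *rpb1-S2A* arrays had a Pearson correlation of 0.965 across features, and those of the *ctk1*Δ arrays 0.859. The replicates differed by a median of 0.0953 and 0.134 on the log2 scale. The *ctk1*Δ arrays stood apart from each other at stress genes, with *HSP26*, a small heat shock protein gene, at 1.72 in replicate a and 3.88 in replicate b. In the same order the *rpb1-S2A* arrays gave 2.40 and 2.08 for this gene. The number of arrays limits the precision of every value below.

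The targeted genes came first, as a check of the labels. *CTK1*, on chromosome XI, had log2 ratios of −2.43 and −2.50 in the *ctk1*Δ arrays and of 0.55 and 0.51 in the *rpb1-S2A* arrays. The groups did not overlap, which held for 45.7% of all features, and the difference was 3.0 (standard error 0.10, adjusted p = 4.8e-10 in limma). *RPO21*, the gene of Rpb1p on chromosome IV, had −2.41 and −1.52 in *rpb1-S2A* and −0.25 and 0.10 in *ctk1*Δ. Its difference was −1.89 (standard error 0.20, adjusted p = 4.12e-05), so the mutated subunit was measured 3.71-fold lower in the strain that carries the mutation. The position of the array probe in *RPO21* is not given in the sources used here. None of the other 11 Pol II subunit genes was called, and all 11 had a 95% interval of the difference inside the fold minimum.

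The genes next to the targeted loci were examined after their values had been seen. *BPL1*, which encodes biotin protein ligase, ends 249 bases from *RPO21* on the opposite strand of chromosome IV. It had −3.13 and −3.01 in *rpb1-S2A* and −0.40 and −0.38 in *ctk1*Δ, a difference of −2.68 (standard error 0.09, adjusted p = 5.16e-10). *SCM3*, a histone chaperone gene 814 bases away on the other side, lay between −0.15 and 0.09 on all 4 arrays. Next to *CTK1* on chromosome XI, *HSK3*, which encodes a subunit of the DASH complex and ends 259 bases away on the opposite strand, had 0.55 and 0.45 in *rpb1-S2A* and −0.23 and −0.52 in *ctk1*Δ. Its difference of 0.88 (adjusted p = 5.65e-05) was called. *TGL1*, a sterol ester hydrolase gene on the other side of *CTK1*, lay between −0.17 and 0.18.

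A feature was called different between the mutants when its Benjamini-Hochberg adjusted p was under 0.05 over all features and its fold difference exceeded 1.7, which is 0.766 on the log2 scale. By this rule 35 features were higher in *rpb1-S2A* than in *ctk1*Δ, which is 0.549% of all features, and 91 were lower, which is 1.43%. Of these, 31 higher and 58 lower features have a gene symbol. For 5984 features (93.9%) the 95% interval of the difference lay wholly inside a 1.7-fold difference in either direction. Against the reference, 7.23% of features rose and 5.18% fell in *rpb1-S2A*, and 6.79% rose and 2.7% fell in *ctk1*Δ. These last comparisons share the reference RNA, and a rise or fall against it can also carry the medium, since YPD was used for these mutants only and the medium of the reference is not given in the sources used here. They are used below only to place each mutant.

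**Figure D1:**
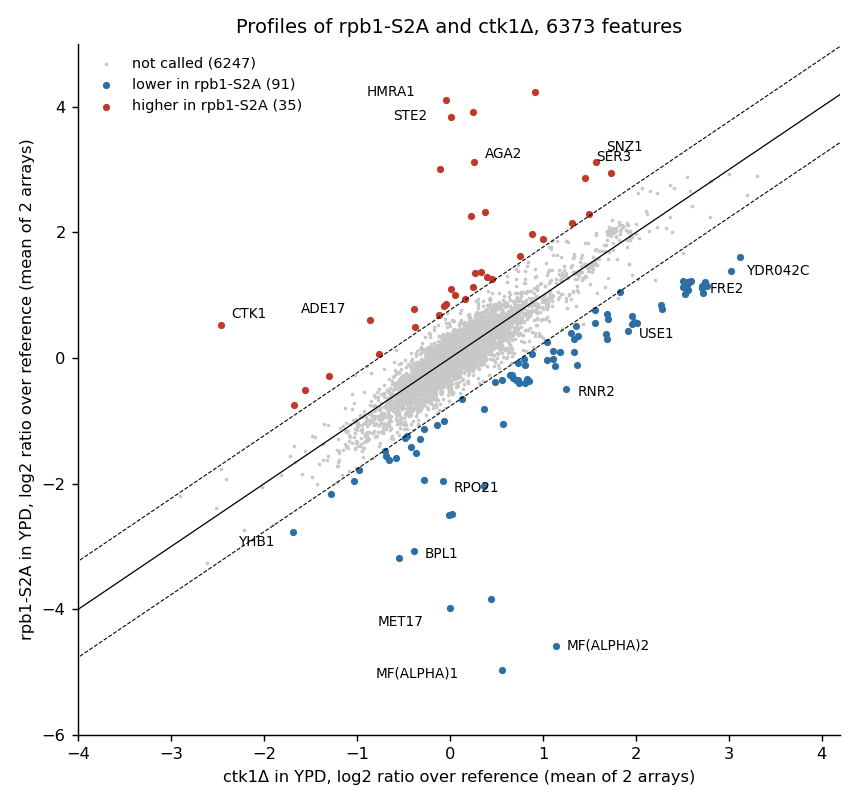
Log2 ratio over the reference in *ctk1*Δ (horizontal) and *rpb1-S2A* (vertical), each the mean of 2 arrays, for 6373 features, with the line of equal values solid and a 1.7-fold difference dashed. The 35 features higher in *rpb1-S2A* (red) and the 91 lower (blue) lie outside the dashed lines, with *MF(ALPHA)2* farthest below the solid line and *HMRA1* farthest above it.

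The 91 lower features were not of a single kind. *ctk1*Δ was above the reference for 29 of them by the same rule while *rpb1-S2A* was not called, 23 had risen in both mutants but less in *rpb1-S2A*, and 24 had fallen in *rpb1-S2A* while *ctk1*Δ was not called. A further 4 had fallen in both, 10 were called in neither profile, and 1, *MF(ALPHA)2*, had fallen in *rpb1-S2A* and risen in *ctk1*Δ. Of the 35 higher features, 19 had risen in *rpb1-S2A* while *ctk1*Δ was not called, 8 had risen in both, 5 had fallen in *ctk1*Δ while *rpb1-S2A* was not called, and 3 were called in neither.

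The largest differences were those of mating type. The a-specific genes, which MATa cells express to secrete a-factor and to detect alpha-factor, were all higher in *rpb1-S2A* (7 of 7, median difference 3.12, beside −0.00056 for all features). *STE2*, the alpha-factor receptor, had 4.03 and 3.66 in *rpb1-S2A* and −0.04 and 0.05 in *ctk1*Δ. *MFA1* and *MFA2*, the a-factor precursor genes, differed by 3.32 and 3.67, and the protease gene *BAR1* by 3.12. The lowest of the list was *STE6*, the a-factor exporter, at 1.95 (standard error 0.12). All 4 alpha-specific genes were lower (median −4.90). *MF(ALPHA)2*, an alpha-factor precursor gene, had −5.12 and −4.05 in *rpb1-S2A* and 1.11 and 1.17 in *ctk1*Δ, and its difference of −5.72 (standard error 0.19) was the largest of all features. *MF(ALPHA)1* differed by −5.53, *STE3*, the a-factor receptor, by −4.28, and *SAG1*, the alpha-agglutinin, by −2.40.

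The mating type loci themselves moved the same way. *HMRA1*, a copy of the a1 gene, had 4.39 and 3.84 in *rpb1-S2A* and 0.02 and −0.12 in *ctk1*Δ, where it was above background on 1 of 2 arrays. *MATALPHA1*, an activator of alpha-specific genes, had −2.69 and −2.27 against −0.01 and 0.06. *MATALPHA2*, a repressor of a-specific genes named after its values were seen, had −0.30 and −0.43 against 0.81 and 0.89. Copies of these genes lie at silent loci too, and their signals may be shared. None of 20 genes of the pheromone response was called, and 17 of them had intervals inside the fold minimum. The mating type given by the strain table for each mutant was thus that of its markers, while the background label, BY4742 for both, was not met by the *rpb1-S2A* arrays.

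Among 5 marker genes, *MET17* (the *MET15* gene), which makes homocysteine and is deleted in BY4741, had −4.43 and −3.54 in *rpb1-S2A* and −0.15 and 0.14 in *ctk1*Δ, a difference of −3.99 (standard error 0.17, adjusted p = 4.81e-09). *LYS2*, an enzyme of lysine synthesis that the strain table lists as mutated in BY4742, was above the reference in both, at 3.24 and 2.18 in *rpb1-S2A* and 2.29 and 1.84 in *ctk1*Δ, and its difference of 0.65 (95% interval 0.21 to 1.09, adjusted p = 0.0556) was not called. The value in *ctk1*Δ went against that genotype. *HIS3*, *LEU2* and *URA3* differed by 0.28, 0.04 and 0.04.

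**Figure D2:**
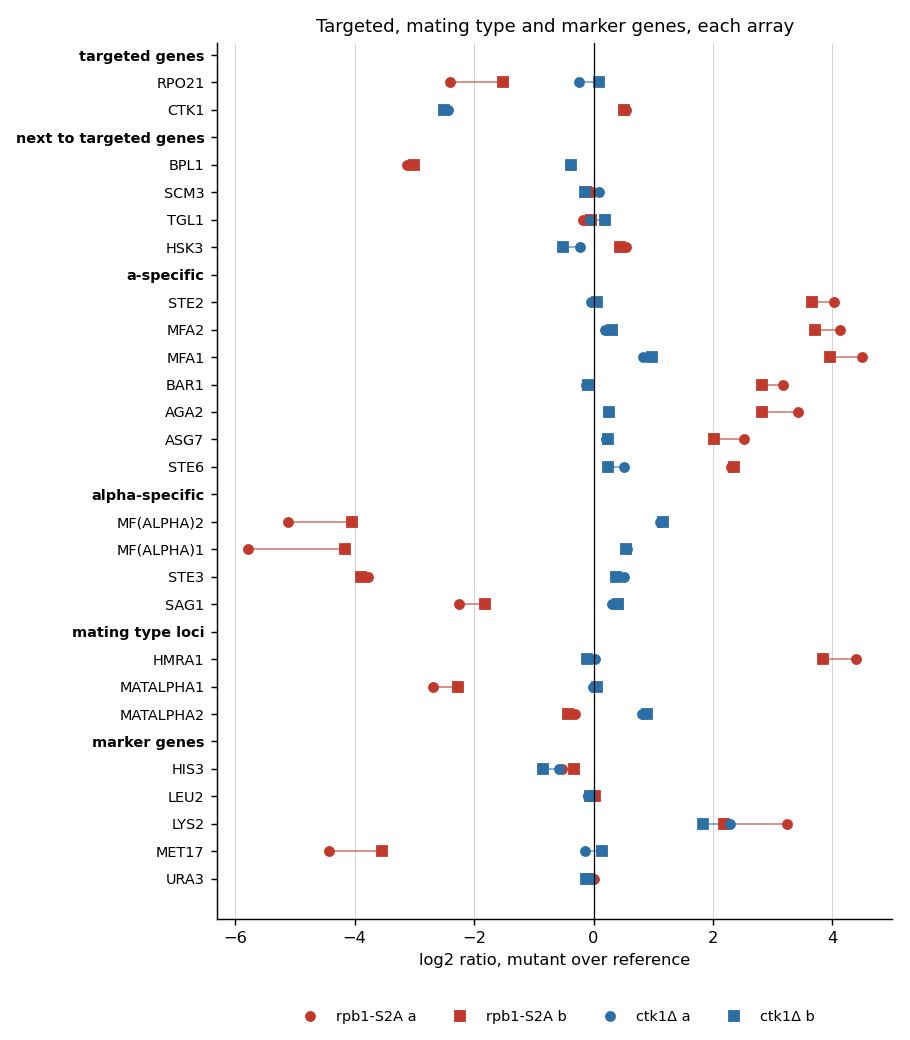
Log2 ratio over the reference (horizontal) of targeted, neighbouring, mating type and marker genes, with 1 point for each array (circles replicate a, squares replicate b). *rpb1-S2A* (red) and *ctk1*Δ (blue) do not overlap at any a-specific or alpha-specific gene, at *RPO21*, *CTK1*, *BPL1* or *MET17*. The same holds for 45.7% of all features. *LYS2* is above 0 on all 4 arrays.

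Other mutants of the same pair of backgrounds were measured in SC, on arrays that share nothing with these 4 except the reference, which cancels in both contrasts. The strain table gives *sen1-1*, *pcf11-2* and *pcf11-ts2* as BY4741 derivatives, and the mean of the 3 profiles (4 arrays) was set against *ctk1*Δ in SC (2 arrays). In that contrast 1.99% of features were called higher and 3.09% lower. Of the 126 features called in YPD, 53 were called in the same direction in SC, which is 42.1% of the YPD calls and 16.4% of the 324 SC calls. *STE2* differed there by 4.29, *MF(ALPHA)2* by −6.42 and *MET17* by −5.13. Outside the lists of a-specific, alpha-specific and marker genes, 17 named genes were called the same way in both, *CTK1* among them. The mating type loci were not on those lists. Of the 126 features, 67 were not called in SC and 6 were called the opposite way there. Among the 6 were *SNZ1* (1.55 in YPD and −1.16 in SC), *PUT1* (1.42 and −0.80) and *YHB1*, a flavohemoglobin gene (−1.07 and 1.55). The SC mutants carry termination defects of their own and the medium differs. *ctk1*Δ is also subtracted in both contrasts, and *CTK1* itself was called in both (3.0 in YPD and 2.99 in SC). A call shared by both can therefore hold the loss of *CTK1* as well as the strain difference, and these were not told apart. An SC value beside a gene below holds these together with the defects of the SC mutants, and is no control for the strain.

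A failure to terminate at a snoRNA can be seen at the first gene after it, and several such genes were lower in *rpb1-S2A*. By the R64 gene table, 60 of 76 snoRNAs have another gene starting within 2000 bases downstream on the same strand, which is another RNA gene for 13 of them. For the others, 43 different protein-coding genes were measured. Any snoRNA that lies within another gene was kept, such as snR39, which lies within *RPL7A* and precedes *HNM1*. *HNM1* had fallen in both mutants. The 43 may therefore include genes with no snoRNA terminator before them, and the counts below hold these too. In *ctk1*Δ 11 of these had risen (6.79% of all features had) and 2 had fallen (2.7%). In *rpb1-S2A* 3 had risen (7.23%) and 3 had fallen (5.18%). Its share of risen genes by this fold rule was close to that of all features. Below the fold minimum but with adjusted p under 0.05 in limma, *UBX6* (0.71), *SMC5* (0.61), *RGT1* (0.51) and *USE1* (0.43) were above the reference there. So were *SEN2* (0.31) and *FLX1* (0.26). Of the genes risen in *ctk1*Δ, *TRS31* (−0.02) and *HEM4* (−0.01) were not. Between the mutants, 7 of 43 were lower in *rpb1-S2A* (1.43% of all features were) and 1 was higher. The median difference of the 43 was −0.06, beside −0.00056 for all features, and 31 had intervals inside the fold minimum. All 7 lower genes had risen in *ctk1*Δ.

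*USE1*, a SNARE gene 287 bases after snR82, had 1.76 and 2.07 in *ctk1*Δ and 0.40 and 0.47 in *rpb1-S2A*. The difference was −1.48 (standard error 0.10, adjusted p = 7.09e-07). *YDR042C*, an uncharacterized gene 399 bases after snR47, was higher still in both mutants, at 3.17 and 3.06 in *ctk1*Δ and 1.6 and 1.63 in *rpb1-S2A*, with a difference of −1.5 (adjusted p = 2.31e-06). The 2 genes were 2.79-fold and 2.83-fold lower in *rpb1-S2A*, but *YDR042C* had risen in both mutants and *USE1* was called against the reference in *ctk1*Δ alone.

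*TRS31*, a TRAPP subunit gene 280 bases after snR13, had 0.86 and 1.35 in *ctk1*Δ and stayed at −0.07 and 0.03 in *rpb1-S2A* (difference −1.12, adjusted p = 2.96e-05). *HEM4*, a heme synthesis gene 211 bases after snR5, had 0.60 and 0.99 in *ctk1*Δ and −0.07 and 0.06 in *rpb1-S2A* (difference −0.81, adjusted p = 8.94e-05). Both had thus risen in *ctk1*Δ and were near the reference in *rpb1-S2A*. By Northern blot, however, the paper found clear readthrough at snR13 in *rpb1-S2A*, similar to or lower than that in *ctk1*Δ. The array value of *TRS31* alone therefore does not show that readthrough was absent there. Without *ctk1*Δ replicate b the difference of *HEM4* was −0.64, below the fold minimum. *SMC5*, a DNA repair gene 345 bases after snR50, had 1.59 and 1.80 against 0.75 and 0.48, a difference of −1.08. *RGT1*, a glucose repressor gene 729 bases after snR69, had 1.37 and 1.33 against 0.59 and 0.43, a difference of −0.84. *SFT1*, a Golgi SNARE gene 398 bases after snR87, had risen in both mutants, with 1.69 and 1.43 in *ctk1*Δ and 0.89 and 0.65 in *rpb1-S2A*, a difference of −0.79. It fell below the fold minimum with median centring (−0.69) and with the arrays scaled to 1 spread (−0.65). With that scaling *HEM4* (−0.55) and *RGT1* (−0.65) fell below it too.

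*REC104*, a meiotic recombination gene 1590 bases after snR71, was higher in *rpb1-S2A*, with 2.02 and 1.76 against 0.88 and 1.12 in *ctk1*Δ (difference 0.88, adjusted p = 0.000611). The difference was 0.66 without *rpb1-S2A* replicate a and 0.46 with the arrays scaled to 1 spread, both below the fold minimum. *UBX6*, 493 bases after snR60, did not separate the mutants, at 0.73 and 0.70 in *rpb1-S2A* and 0.62 and 0.98 in *ctk1*Δ, with a difference of −0.09 (95% interval −0.37 to 0.20). *SEN2* and *FLX1* had risen in *ctk1*Δ and differed by −0.69 and −0.58, with adjusted p under the threshold but below the fold minimum. The 7 genes called lower began 211 to 729 bases after their snoRNA (median 345), and the other 36 began 149 to 1939 bases after (median 878.5). *SNR10*, the only snoRNA with a named feature, had 1.06 and 1.2 in *ctk1*Δ and −0.20 and −0.07 in *rpb1-S2A*, a difference of −1.26 (standard error 0.21, adjusted p = 0.00161). With the arrays scaled to 1 spread it was −0.88 and not called (adjusted p = 0.394 in limma). On its tiling arrays the paper points to readthrough at snR10 in *ctk1*Δ. At these genes the SC contrast averages profiles that lay on either side of *ctk1*Δ. Its value was −0.92 for *TRS31*, where *sen1-1* alone was at 3.74 and *ctk1*Δ in SC at 1.92, and −1.88 for *YDR042C*, where they were at 4.16 and 3.77. *SMC5* and *RGT1* were also called lower in that mean, while *USE1* (0.09), *HEM4* (−0.48) and *SFT1* (−0.45) were not called, and *sen1-1* was above *ctk1*Δ in SC at all 7. The mean therefore gives no strain difference for them.

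**Figure D3:**
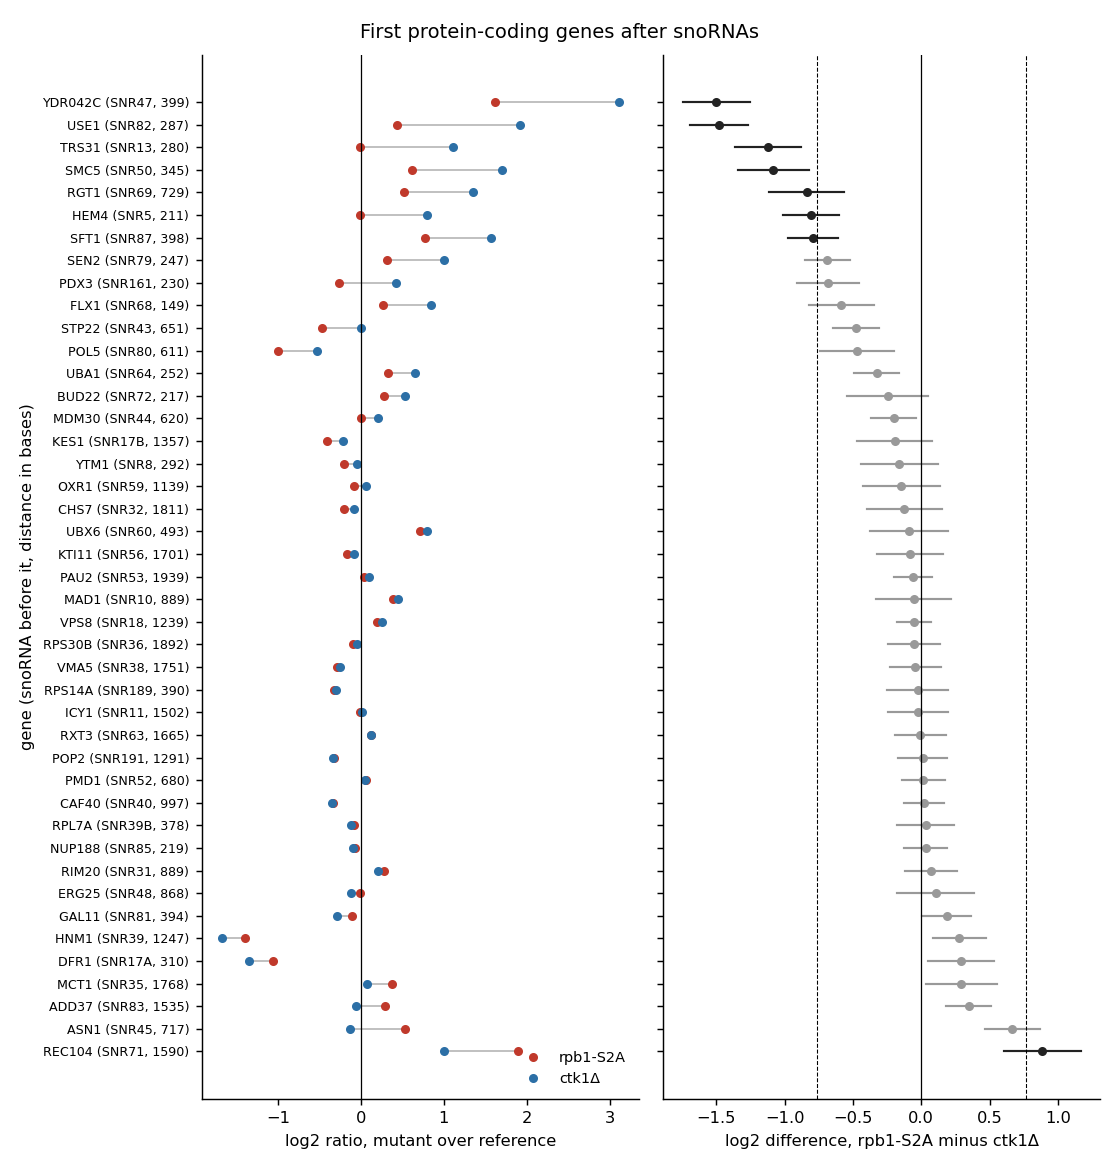
First protein-coding genes after snoRNAs (43 genes, with the snoRNA and the distance in bases), with the mean log2 ratio of each mutant over the reference on the left and the log2 difference with its 95% interval on the right. Black intervals are called genes, and dashed lines mark a 1.7-fold difference, with 7 genes lower and *REC104* higher in *rpb1-S2A*.

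Lists of genes that the study relates to termination held few other calls. Its supplementary set I names 22 genes after snoRNAs, of which 17 were measured. Of these, 9 had risen in *ctk1*Δ (6.79% of all features had) and 2 in *rpb1-S2A* (7.23%). Of the 17, 5 were lower in *rpb1-S2A* (1.43% of all features were), all among the 7 above, and 1, *REC104*, was higher (0.549%). The study chose that list from expression profiles of this series, so its direction is not independent evidence. Of the 7 genes with weak polyadenylation sites in its set IV, 6 had fallen in *rpb1-S2A* (5.18% of all features had) and 6 in *ctk1*Δ (2.7%). That set too was chosen from profiles of this series, among them *ctk1*Δ in SC, so the fall is not independent evidence. None of the 7 was called between the mutants, and all 7 intervals lay inside the fold minimum. *PTC2*, a protein phosphatase gene, had −2.94 and −2.55 in *rpb1-S2A* and −2.19 and −2.25 in *ctk1*Δ. Of 7 genes attenuated by NNS, 1 was called lower (1.43% of all features were). This was *URA8*, a CTP synthase gene, with −0.04 and −0.11 against 0.62 and 0.84 (difference −0.80). Without *rpb1-S2A* replicate b or *ctk1*Δ replicate b its difference was −0.76 and −0.69, both below the fold minimum. *NRD1* itself differed by −0.25 (95% interval −0.53 to 0.02).

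*SER3*, a serine synthesis gene repressed by transcription of the noncoding *SRG1* across its promoter, was higher in *rpb1-S2A*. It had 3.07 and 2.82 there and 1.68 and 1.78 in *ctk1*Δ, a difference of 1.21 (standard error 0.13, adjusted p = 4e-05), and both mutants were well above the reference. With the arrays scaled to 1 spread the difference of *SER3* was 0.59, below the fold minimum. *SER3* was the only one called of 7 genes listed here for their place beside tiling array examples of readthrough. *NRD1*, *BIO4* and *BIO5* are among the 7. The list leaves out *MF(ALPHA)2* and *SNR10*, which are tiling array examples too. Both were called lower in *rpb1-S2A*, with differences of −5.72 and −1.26.

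Differences in the termination and CTD machinery were small apart from the targeted genes. None of 21 genes of the NNS complex, exosome and TRAMP was called, nor any of 22 CPF/CF and Rat1 complex genes or 16 genes of Set2, Rpd3S and elongation factors, and all had intervals inside the fold minimum. Among 14 genes of CTD kinases and phosphatases, only *CTK1* was called. *CTK2* and *CTK3*, which encode the partners of Ctk1p, differed by 0.15 and 0.25. *SGV1* differed by −0.41 and *SSU72*, a CTD phosphatase gene, by −0.40 (adjusted p = 0.00376 and 0.00131), which is below the fold minimum.

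Ribonucleotide reductase, which makes deoxynucleotides and is induced by the DNA damage checkpoint, was the pathway with the highest share of lower genes. *RNR2*, *RNR3*, *RNR4* and *HUG1*, that is 4 of 7 listed genes, were lower in *rpb1-S2A* (1.43% of all features were), and the list had a median difference of −1.03. *RNR2*, a small subunit gene, had −0.48 and −0.52 in *rpb1-S2A* and 0.92 and 1.58 in *ctk1*Δ, a difference of −1.75 (standard error 0.16, adjusted p = 1.68e-05). *HUG1*, an inhibitor of the small subunit, had −0.12 and −0.10 against 0.97 and 1.76. *RNR3*, the damage-inducible large subunit, had 0.38 and 0.32 against 1.22 and 1.53, and *RNR4* −0.14 and 0.34 against 0.80 and 1.57. All 4 had thus risen in *ctk1*Δ and none of the 4 was called against the reference in *rpb1-S2A*. Of all 7 listed genes, 6 had risen in *ctk1*Δ (6.79% of all features had) and 2 in *rpb1-S2A* (7.23%). *RNR1*, the main large subunit, differed by −0.36, and *DIN7* and *RFX1* by 0.21 and 0.03. Without *ctk1*Δ replicate b, the difference of *RNR4* was −0.74, below the fold minimum. With the arrays scaled to 1 spread, *RNR3* (−0.75) and *RNR4* (−0.73) were below it. In the SC contrast 2 of the 7 genes were called lower (3.09% of all features were), and the list median was −0.40.

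Purine synthesis went the other way. Of 11 measured genes, 4 were higher in *rpb1-S2A* (0.549% of all features were), none was lower, and all 11 differences were above 0, with a median of 0.60. *ADE17*, which acts in the last steps of the pathway, had 0.50 and 0.70 in *rpb1-S2A* and −0.87 and −0.86 in *ctk1*Δ, a difference of 1.47 (standard error 0.10, adjusted p = 7.09e-07). *SHM2*, which supplies one-carbon units, had −0.50 and −0.06 against −1.40 and −1.21. *ADE1* and *ADE13* differed by 0.89 and 0.80. Both lost the call without *ctk1*Δ replicate b, at 0.58 and 0.67, and *ADE13* also without *rpb1-S2A* replicate b, at 0.70. In the SC contrast no gene of the list was called and its median was −0.12.

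Several amino acid and vitamin genes were also higher in *rpb1-S2A*. *CPA1*, a subunit of carbamoyl phosphate synthetase, had 1.51 and 1.19 in *rpb1-S2A* and 0.08 and 0.47 in *ctk1*Δ, and *ARG1*, in the same arginine pathway, had −0.78 and −0.73 against −1.79 and −1.58. These were the 2 of 39 Gcn4 target genes that were called (0.549% of all features were higher), the list median being 0.19. Both lost the call with the arrays scaled to 1 spread, where *CPA1* differed by 0.65 and *ARG1* by 0.74. *PUT1*, proline oxidase, had 3.03 and 2.70 against 1.10 and 1.79 (difference 1.42). It was the only one of 20 nitrogen catabolite genes called (0.549% of all features were higher). *SNZ1*, a vitamin B6 synthesis gene, had 3.24 and 3.0 against 1.13 and 2.0 (difference 1.55, adjusted p = 0.000702). *CIT2*, the peroxisomal citrate synthase, had 0.69 and 0.87 against −0.62 and −0.15.

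Most biotin genes were below the reference in both mutants. *BIO2*, *BIO3*, *BIO4* and *BIO5* had fallen in both mutants, and *BIO2*, biotin synthase, had −2.36 and −2.02 in *rpb1-S2A* and −2.94 and −2.86 in *ctk1*Δ. *VHT1*, the biotin importer, was the member called higher in *rpb1-S2A*, with −0.60 and −0.41 against −1.63 and −1.49 (difference 1.05, adjusted p = 9.51e-07), and *BPL1*, beside *RPO21*, the member called lower.

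Among lower genes outside the pathways above, *CHA1*, a serine and threonine deaminase, had −1.83 and −2.07 in *rpb1-S2A* and −0.15 and −0.42 in *ctk1*Δ, a difference of −1.66 (adjusted p = 0.00158). *FRE2*, a ferric reductase, had 1.5 and 1.26 against 3.02 and 3.04. It was the only one of 26 iron genes called (1.43% of all features were lower), and the list median was −0.05. *CWP1*, a cell wall mannoprotein, had −1.16 and −0.93 against 0.21 and 0.92, whereas *PRM5*, a target of the cell wall integrity pathway, was higher with 2.39 and 2.20 against 1.32 and 1.66. *COX4* and *INH1*, of the respiratory chain and ATP synthase, differed by −0.97 and −1.18, and both lost the call without *ctk1*Δ replicate b, at −0.75 and −0.65. *PHO12*, an acid phosphatase, was the 1 of 14 phosphate starvation genes called, at 0.80 (0.549% of all features were higher). *PHO12* and *PRM5* lost the call without *rpb1-S2A* replicate a (0.70 and 0.68) or *ctk1*Δ replicate a (0.39 and 0.63).

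**Figure D4:**
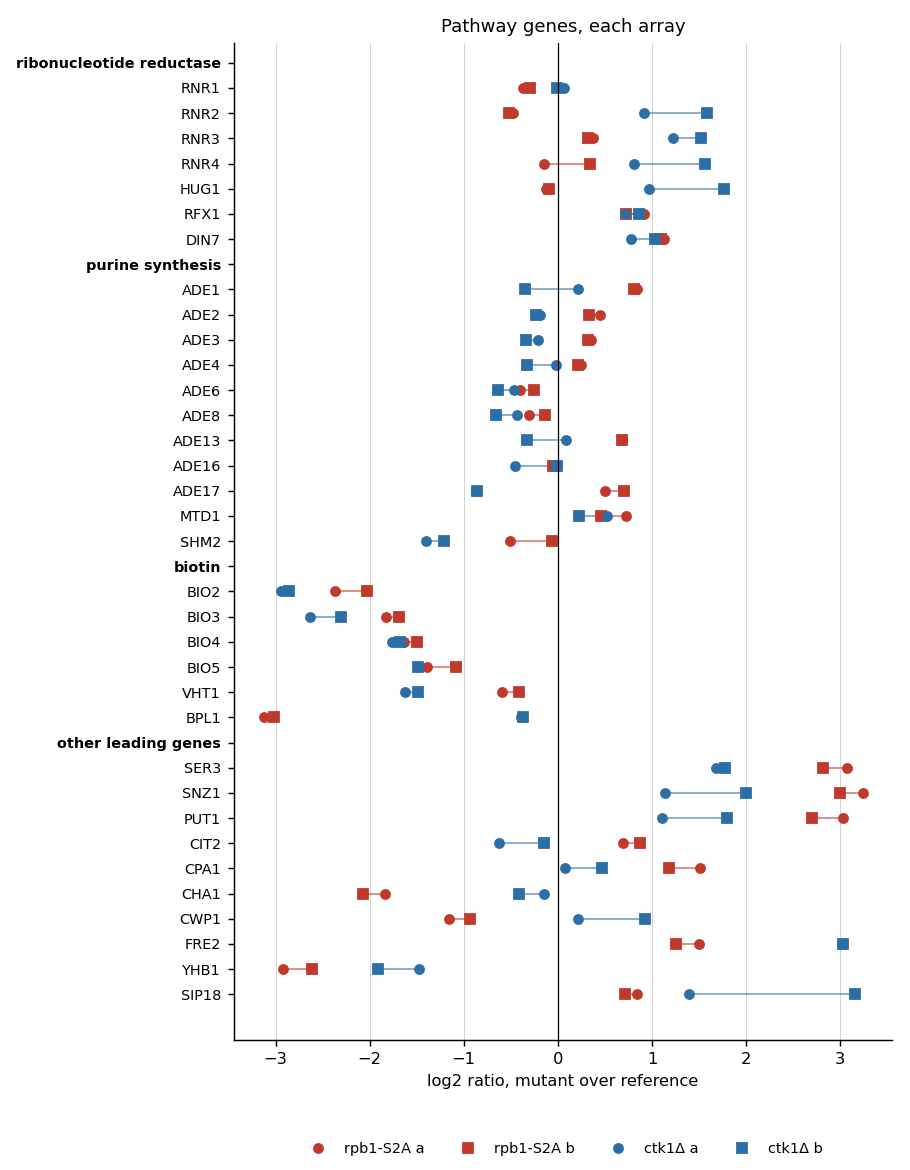
Log2 ratio over the reference (horizontal) of genes of ribonucleotide reductase, purine synthesis and biotin and of other leading genes, with 1 point for each array (circles replicate a, squares replicate b). *RNR2* and *HUG1* are above 0 in *ctk1*Δ (blue) and below 0 in *rpb1-S2A* (red), and *ADE17* the reverse, while the *ctk1*Δ arrays lie far apart at *SIP18*.

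Of 34 measured subtelomeric genes, 2 were called, both lower in *rpb1-S2A* (1.43% of all features were). Both are helicase genes of Y′ elements and had risen in both mutants. *YRF1-7* had 1.27 and 1.13 in *rpb1-S2A* and 2.78 and 2.71 in *ctk1*Δ, a difference of −1.54 (standard error 0.16, adjusted p = 4.17e-05), and *YRF1-5* differed by −1.28. These genes are nearly identical copies, so their probes are not independent measurements. Of 1062 features with no gene symbol, 37 were called, 33 lower and 4 higher (1.43% and 0.549% of all features were). Of the 33 lower, 15 had risen in both mutants, by 2.27 to 2.76 in *ctk1*Δ and by 0.85 to 1.22 in *rpb1-S2A*. Their genes are not annotated in the table used here. The stress genes *SIP18* and *PAI3* differed by −1.51 and −1.01 (adjusted p = 0.0237 and 0.0334). Both lost the call without either *rpb1-S2A* replicate and without *ctk1*Δ replicate b, where they were −0.59 and −0.34.

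Of 33 Msn2/Msn4 stress genes, 29 had risen in *ctk1*Δ (6.79% of all features had) and 22 in *rpb1-S2A* (7.23%). Between the mutants 2 of the 33, *SIP18* and *PAI3*, were lower (1.43% of all features were), and the list median of the difference was −0.19, with 4 intervals inside the fold minimum. None of 126 cytosolic ribosomal protein genes, 67 mitochondrial ribosomal protein genes or 105 ribosome biogenesis genes was called, and their median differences were −0.12, 0.18 and −0.13. All 126 and all 67 had intervals inside the fold minimum. Of 26 iron genes 14 had risen in *ctk1*Δ and 13 in *rpb1-S2A*, and of 14 phosphate starvation genes 7 and 9, against the same shares of all features. *PHO84*, the phosphate importer, had 3.07 and 2.81 in *rpb1-S2A* and 2.88 and 3.12 in *ctk1*Δ. None of 10 histone genes or 12 cyclin genes was called, and all had intervals inside the fold minimum.

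**Figure D5:**
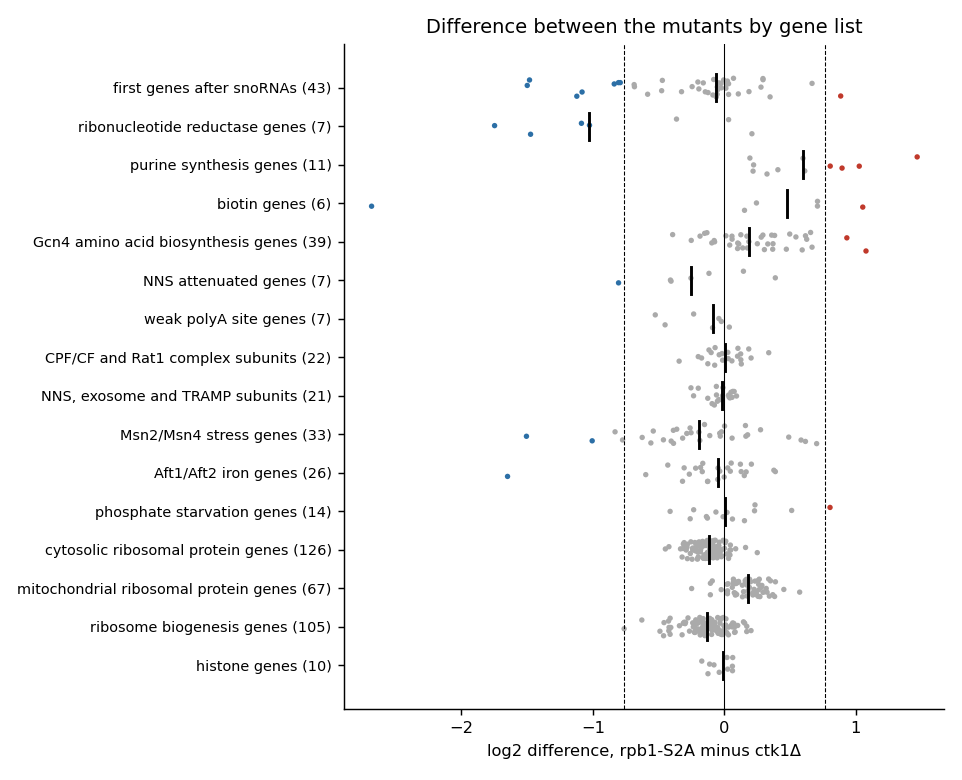
Log2 difference, *rpb1-S2A* minus *ctk1*Δ (horizontal), of each measured member of 16 gene lists, with the number of members in brackets, the median as a black bar and a 1.7-fold difference as dashed lines. Called members are red (higher) or blue (lower), and ribonucleotide reductase genes (median −1.03) and purine synthesis genes (median 0.60) lie farthest from 0.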

How the data were processed

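The authors deposited scanner intensity values per spot, with local background, for 22 dual-channel arrays, and log2 ratios that had been normalized with a dye-bias step (the submitters' processing notes list limma, at 2.12.0 where a version is stated). The file has no direction; 6 columns were turned to mutant over reference after comparison with the scanner values, their medians lie between −0.013 and 0.0387, and these ratios serve as an alternative only. Mean signals were background corrected with normexp (offset 50) and normalized by loess within each array in limma 3.58.1 (R 4.3.3), with control spots (2776 of 15552) at weight 0. Duplicate spots of 6388 probes, then probes of a gene, were averaged. The platform annotation names 5326 probes, and 58 symbols were updated through the R64 gene table, which also gave positions and neighbours and, as the build of the arrays is not given in the sources used here, no probe position.

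The 22 arrays were fitted together in limma, with 12 profile means and a term for the dye, which is also the replicate letter. Variances were moderated by eBayes (residual degrees of freedom 9, prior 3.68). Above background means more than 2.6 SD over the local background, and saturated means 65000 or more. Replicate letters did not pair the samples (correlation of deviations 0.0396, 1 pair of groups). In simulated data with 6373 genes for this contrast, 2 of 50 genes with a 1.5-fold, 48 of 50 with a 2-fold, 50 of 50 with a 3-fold and 50 of 50 with a 4-fold difference were called, and 0 unchanged genes. The noise was normal, with the spread of each gene from the joint fit and equal in all groups. The measured *ctk1*Δ replicates differed more (95th percentile 0.627) than the *rpb1-S2A* replicates (0.339), so the simulation gives no rate of false calls for these arrays. The named genes are the targeted genes, the 15 largest called differences in each direction whose arrays do not overlap, called members of the mating, marker, termination, snoRNA and CTD lists and up to 4 called members of each other list. Members and lists were chosen with earlier results of these data known. Alternatives left out the dye term, the SC arrays or each array in turn, or changed the background, normalization, filter or fold minimum.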

Additional observations from a re-analysis of the deposited data

Results flagged for a closer look

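*MF(ALPHA)2* was the only feature called in opposite directions against the reference in the 2 mutants, with the difference itself tested in the same model. It had fallen in *rpb1-S2A* (−4.58) and risen in *ctk1*Δ (1.14), a difference of −5.72 on the log2 scale (standard error 0.19, adjusted p = 4.8e-10 in limma, lower on 2 of 2 *rpb1-S2A* arrays). It is an alpha-specific gene, and the strains differ in mating type by the strain table. The paper also shows it as an mRNA with readthrough in *ctk1*Δ on tiling arrays. The cause of its rise in *ctk1*Δ was not tested.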

How the results depend on the processing

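The difference of each of 53 named genes kept its sign under every alternative run (*HMRA1* has no value among features above background on all arrays). Counts of features higher and lower in *rpb1-S2A* were 35 and 91. They were 35 and 87 with no replicate block, 9 and 33 with the 4 YPD arrays alone (1 residual degree of freedom), 15 and 51 with loess and scaling of the arrays to 1 spread, 297 and 528 with no fold minimum, and 20 higher at a fold difference over 2. With a normexp offset of 10, 60 were higher. Leaving out an array gave 34 to 74 higher (74 without *ctk1*Δ replicate b) and 80 to 152 lower (152 without *ctk1*Δ replicate a). Features within the fold minimum numbered 5649 to 6184. Of the first genes after snoRNAs, 7 were lower, 6 with median centring in place of loess, 4 with scaling and 1, *YDR042C*, with the YPD arrays alone. Of the 126 calls, 121 held with the authors' processed ratios, 66 with scaling and 42 with the YPD arrays alone, where 33 of the 53 named genes lost the call, among them *RPO21*, *USE1*, *TRS31*, *RNR2* and *SER3*. With scaling 18 of the 53 lost the call, among them *HEM4*, *RGT1*, *REC104*, *RNR3*, *SER3* and *SNR10*. The cause was not tested.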
